A study of Lachancea kluyveri with 16 samples.

Results

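The 54 genes described here were expressed less in YPGly than in YPD in both strains of the yeast Lachancea kluyveri, by a moderate amount. They are a subset of the 5316 genes on the array and of the 4255 tested. They were chosen by their measured change between media, which averaged over sef1Δ and WT had to lie between -4 and -2 on the log2 scale, that is 4-fold to 16-fold lower in YPGly. The processed signal of a gene also had to reach 200 on all 4 arrays of at least 1 group. In each gene the probe with the higher mean over the 16 arrays stood for the gene. Genes near the left chromosome ends, the left part of chromosome C and 2 single loci were left out by locus number, which removed 10 further genes in the range. Since these values chose the genes, the change of the 54 with medium is given as a description without a test, and only comparisons between strains were tested for them. The strain comparisons use the same arrays, so for a gene chosen through 1 strain they are not free of the choice.

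The study compared 4 groups of 4 arrays, sef1Δ in YPGly, WT in YPGly, sef1Δ in YPD and WT in YPD. Both strains were MATa ura3, and sef1Δ carried KanMX6 in place of SEF1, which encodes a transcription factor of the zinc cluster family. Each genotype was represented by a single strain, and the replicates are described as biological in the methods of the study, so p-values measure the spread between samples of 1 strain. Cells were taken from an overnight YPD culture (28 °C), diluted to 0.2 OD600 per ml in YPD (glucose) or YPGly (glycerol) and grown at 30 °C for 5.5 h before RNA extraction. Values are log2 signals relative to the 75th percentile of each array, called normalised log2 signals below. Each change is thus set against the other transcripts on the array, and fewer copies of 1 transcript cannot be told apart from more of the rest.

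Glucose is the preferred carbon source of budding yeasts. On glucose they run glycolysis and alcoholic fermentation at a high rate and grow fast, with a large demand for ribosomes, sterols and amino acids. Glycerol has to be oxidised by the mitochondria, and growth on it is slower. In Saccharomyces cerevisiae, transporters of ammonium, amino acids and peptides are set mainly by the nitrogen supply, and genes of DNA replication by the cell cycle. Roles given below are those of the S. cerevisiae orthologs, whose symbols were held for 26 of the 54 genes and for 1951 of the 4255 genes tested. The remaining 28 genes are named by locus.

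Arrays differed in brightness, with processed signals of 718 to 2410 at the 75th percentile, and 90.5% to 98.7% of gene probes were well above background. The dimmest array was replicate 2 of sef1Δ in YPGly. The lowest share above background, 90.5%, was that of replicate 4 of WT in YPD, and the next lowest was 96.2%. SEF1 itself checked the labels. Its normalised log2 signal was -8.15 ± 1.60 in sef1Δ and -1.56 ± 0.12 in WT in YPGly, and -8.86 ± 0.64 in sef1Δ and -1.93 ± 0.50 in WT in YPD (SD, n = 4 each). The strains did not overlap in either medium (exact two-sided permutation p = 0.0286 in each, the smallest that 4 against 4 arrays allow). In sef1Δ the SEF1 spot was well above background on 1 of 4 arrays in YPGly and 0 of 4 in YPD. Of the 54 genes, 53 were well above background on all 16 arrays and the remaining gene, ECM27, on 15, and none had a spot marked as an outlier.

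In YPGly the median of the 54 changes was -2.36 in sef1Δ (5.12-fold lower than in YPD) and -2.43 in WT (5.38-fold lower), where the medians over all genes tested were -0.11 and -0.14. Single genes ranged from -4.81 to -1.61 in sef1Δ and from -3.68 to -1.61 in WT. Taken alone, 43 of the genes lay between -4 and -2 in sef1Δ, 44 in WT and 34 in both. The YPGly arrays lay wholly below the YPD arrays in both strains for 49 of the 54 (18.1% of all genes tested), and 43 were at least 2-fold lower in all 8 same-numbered pairs of arrays (3.81% of all genes). The rule used this contrast, so nothing is read from either count. With arrays scaled to their spike-in controls instead, the median over all genes shifted to 0.19 in sef1Δ and 0.53 in WT, and that of the 54 genes to -2.06 and -1.76, with all 54 still below 0 in both strains. Matched by replicate number, the median of the 54 changes ran from -2.66 to -2.19 over the 4 pairs of sef1Δ and from -2.51 to -2.14 over those of WT.

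**Figure D1:**
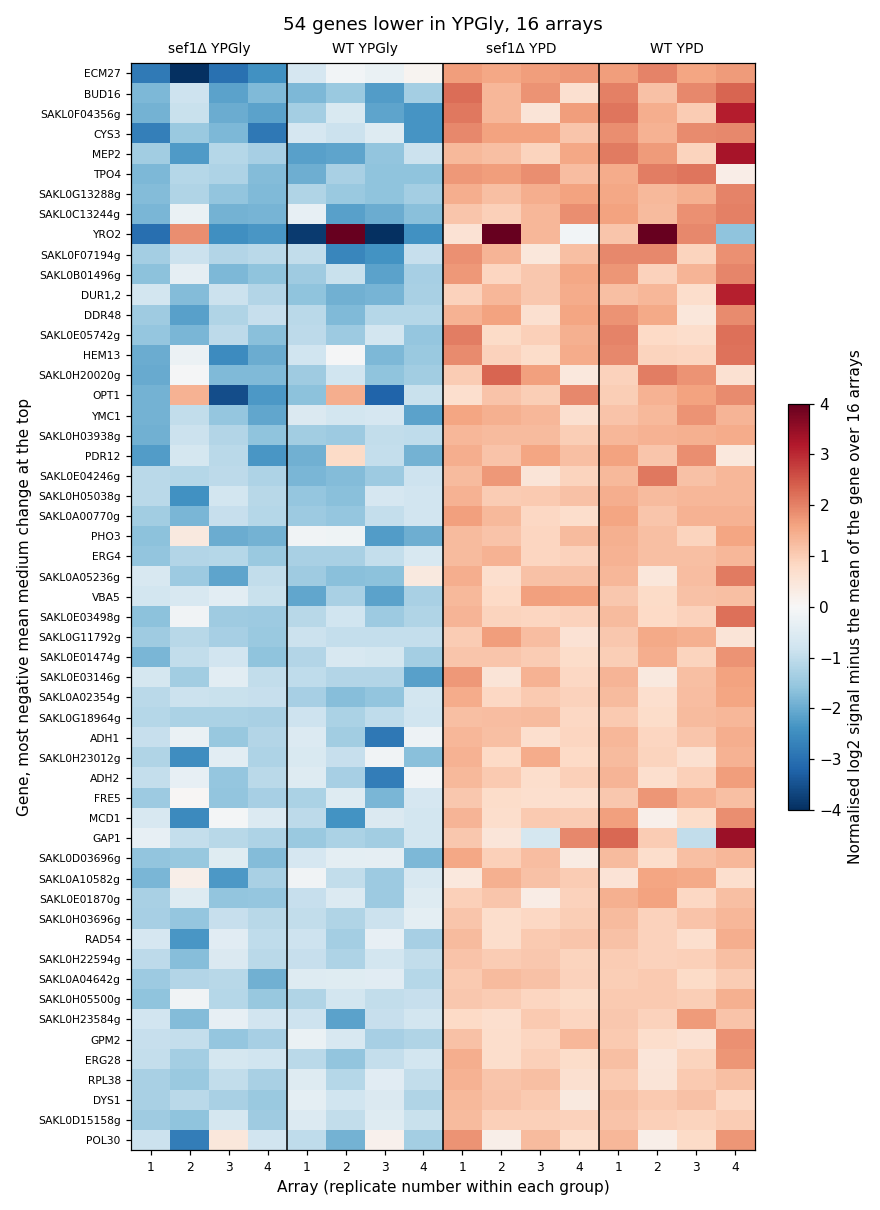
Normalised log2 signal of the 54 genes (rows, most negative mean change between media at the top) on the 16 arrays (columns, 4 replicates of each group), each gene centred on its own mean over the arrays. The 8 YPGly columns are mostly blue (below the mean of the gene) and the 8 YPD columns mostly red, with replicate 2 of YPGly standing out for YRO2, OPT1, PHO3 and PDR12.

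The values near the ends of the range were not set apart by a gap at -2. Just inside it were POL30 (-2.02), SAKL0D15158g (-2.02) and DYS1 (-2.03), and just outside RPS28A (-1.96), SNZ3 (-1.96) and FUI1 (-1.95). At the other end the range was empty between -4 and -3.39, the value of ECM27, which was followed by BUD16 (-3.36) and SAKL0F04356g (-3.34). The nearest of the 4 genes below -4 were SAKL0H11770g (-4.64), the serine hydrolase gene FSH1 (-5.30) and the aldehyde dehydrogenase gene ALD5 (-5.51).

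The other probe of each gene was not used to choose it, but read the same RNA on the same arrays. The other probe thus checks the probe and not the samples. It existed for 53 of the 54, and its signal was lower by 2-fold or more in YPGly in both strains for all 53. Its mean change had a median of -2.51 and lay between -4 and -2 for 48 genes. The 2 probes differed most for FRE5, weakly similar to ferric reductases that reduce iron for uptake, where the chosen probe gave -2.16 and the other -5.26 while well above background on only 10 of 16 arrays. Of the other 30 tested genes of iron, copper and zinc uptake, 5 were called lower and 7 higher in YPGly in both strains by limma. For SAKL0H20020g the values were -2.69 and -3.87, and for TPO4 -3.11 and -3.99.

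Most of the 54 genes were among the stronger signals on glucose and the weaker ones on glycerol. The rule asked for a fall in YPGly and for the signal floor in at least 1 group, which favours this pattern. The ranks are therefore given as a description, and nothing is read from them. By their level in YPGly averaged over strains, 17 of the 54 lay above the median of all genes tested, against 43 in YPD, and their median percentile was 21.5 in YPGly and 78.4 in YPD. In YPD, 17 of them were in the top 10%. Probes differ in how well they bind, so these ranks describe signal and not transcript number. The brightest were the alcohol dehydrogenase genes ADH1 and ADH2, followed by HEM13, DDR48, SAKL0B01496g, SAKL0H20020g, SAKL0G18964g and RPL38, which encodes a protein of the large ribosomal subunit. DDR48, whose S. cerevisiae ortholog responds to heat shock and DNA damage, averaged 1.19 ± 0.54 and 1.33 ± 0.32 in YPGly (sef1Δ and WT), against 3.93 ± 0.46 and 4.03 ± 0.66 in YPD (SD, n = 4 each).

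Fermentation and glycolysis were represented by ADH1, ADH2 and GPM2. ADH1 (SAKL0C10164g) and ADH2 (SAKL0F06270g) encode alcohol dehydrogenases, which interconvert acetaldehyde and ethanol. ADH1 measured 4.73, 5.38, 4.12 and 4.48 on the 4 arrays of sef1Δ and 5.09, 4.25, 2.78 and 5.45 on those of WT in YPGly, against 6.98, 6.85, 6.32 and 6.50 in sef1Δ and 6.98, 6.51, 6.76 and 7.11 in WT in YPD. It was 3.96-fold lower in YPGly in sef1Δ and 5.43-fold lower in WT, with no overlap between media, and replicate 3 of WT in YPGly was its lowest array. ADH2 changed by -1.98 in sef1Δ and -2.35 in WT, but the probe names mark both probes of each of these 2 genes as cross-hybridising, so signals of the 2 genes cannot be told apart. The third gene was GPM2, similar to the glycolytic phosphoglycerate mutase, which changed by -2.20 and -1.91. Of the other 20 genes tested on a list of glycolysis and fermentation genes, 12 were called lower and 2 higher in YPGly in both strains by limma. Over all other genes tested, 686 of 4201 (16.3%) were called lower and 562 higher in both strains. None of the 19 tested genes of the TCA cycle was among the 54, and 12 of them were called higher in YPGly in both strains.

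Genes of nitrogen uptake and use held 3 transporters and 1 enzyme. MEP2, an ammonium transporter, measured -2.83, -3.69, -2.58 and -2.76 in sef1Δ and -3.59, -3.54, -3.01 and -2.29 in WT in YPGly, against -0.13, -0.20, -0.53 and 0.14 in sef1Δ and 0.65, 0.28, -0.54 and 1.87 in WT in YPD. It was 6.88-fold lower in YPGly in sef1Δ and 12.8-fold lower in WT. The high WT array in YPD was replicate 4, which was also the highest for DUR1,2 and GAP1. It was the array with the lowest share of probes well above background. DUR1,2, the urea amidolyase that splits urea into ammonia and CO2, measured 0.99, 1.13, 0.49 and 2.91 in WT in YPD, and its change was -2.34 in sef1Δ and -3.26 in WT. GAP1, the general amino acid permease, measured -1.58, -2.19, -2.35 and -2.49 in sef1Δ and -2.74, -2.49, -2.63 and -1.98 in WT in YPGly, against -0.16, -0.77, -1.95 and 0.69 in sef1Δ and 1.05, -0.22, -2.21 and 2.17 in WT in YPD. Replicate 3 was its lowest and replicate 4 its highest array of either strain in YPD, and through replicate 3 the YPGly and YPD arrays overlapped in both strains. Its change was -1.61 in sef1Δ and -2.66 in WT over all 4 replicates, -1.08 and -2.16 without replicate 4, and -2.01 and -3.40 without replicate 3. Of the other 23 tested transporters of amino acids, ammonium, nucleobases and vitamins, 3 were called lower and 5 higher in YPGly in both strains.

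OPT1, the oligopeptide transporter, depended on the replicate. It measured -1.89, 1.39, -3.55 and -2.31 in sef1Δ and -1.66, 1.45, -3.21 and -0.90 in WT in YPGly, against 0.66, 1.13, 0.99 and 1.90 in sef1Δ and 0.98, 1.38, 1.61 and 1.87 in WT in YPD. In both strains replicate 2 of YPGly was as high as the YPD arrays, and the other 3 lay below all of them. Without replicate 2 the change was -3.76 in sef1Δ and -3.41 in WT, against -2.76 and -2.54 over all 4.

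CYS3 was the 1 gene of amino acid biosynthesis. It encodes cystathionine gamma-lyase, which makes cysteine from cystathionine, and it was 13.8-fold lower in YPGly in sef1Δ and 7.26-fold lower in WT. Among the other 64 tested genes of that list, 14 were called lower and 6 higher in YPGly in both strains. BUD16, a pyridoxal kinase of vitamin B6 metabolism, averaged -3.74 ± 0.56 and -3.83 ± 0.39 in YPGly (sef1Δ and WT), against -0.61 ± 0.69 and -0.24 ± 0.48 in YPD (SD, n = 4 each) and changed by -3.13 in sef1Δ and -3.59 in WT. PHO3, an acid phosphatase, changed by -2.41 and -2.40, and YMC1, a carrier of the mitochondrial inner membrane, by -2.87 and -2.42. Of the other 14 tested genes of phosphate uptake and use, 1 was called lower and 7 higher in YPGly in both strains.

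HEM13 acts in heme synthesis, and ERG4 and ERG28 in sterol synthesis. HEM13 encodes coproporphyrinogen III oxidase, an enzyme of heme synthesis that uses oxygen. It measured 1.00, 2.74, 0.46 and 0.98 in sef1Δ and 2.18, 2.93, 1.19 and 1.5 in WT in YPGly, against 4.86, 3.89, 3.73 and 4.45 in sef1Δ and 4.90, 3.87, 3.85 and 5.15 in WT in YPD. Media did not overlap, and it was 7.65-fold lower in YPGly in sef1Δ and 5.63-fold lower in WT. On the list of vitamin and cofactor synthesis that holds HEM13, 5 of the other 28 genes tested were called lower and 4 higher in YPGly in both strains. ERG4, the C-24(28) sterol reductase at the end of ergosterol synthesis, had closer replicates and averaged -0.56 ± 0.22 and -0.27 ± 0.32 in YPGly (sef1Δ and WT), against 1.90 ± 0.26 and 2.06 ± 0.10 in YPD (SD, n = 4 each). ERG28, a membrane protein that holds enzymes of sterol synthesis together, changed by -1.92 in sef1Δ and -2.17 in WT. Of the other 27 tested genes of sterol, fatty acid and phospholipid synthesis, 14 were called lower and 2 higher in YPGly in both strains.

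Exporters of the plasma membrane included TPO4 and PDR12. TPO4, a polyamine transporter, averaged -4.90 ± 0.34 and -5.03 ± 0.28 in YPGly (sef1Δ and WT), against -1.79 ± 0.28 and -1.93 ± 0.86 in YPD (SD, n = 4 each), with changes of -3.11 in sef1Δ and -3.11 in WT. PDR12, an ABC transporter that exports weak organic acids, measured -0.84, 0.71, 0.34 and -0.92 in sef1Δ and -0.53, 2.18, 0.45 and -0.48 in WT in YPGly, against 2.86, 2.56, 2.99 and 2.60 in sef1Δ and 3.01, 2.52, 3.28 and 1.83 in WT in YPD. Replicate 2 was the highest YPGly array of either strain, and in WT it overlapped the YPD arrays. Of the other 15 exporters tested, 3 were called lower and 4 higher in YPGly in both strains.

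POL30, MCD1 and RAD54 work on DNA. POL30 encodes PCNA, the sliding clamp of replication, MCD1 a cohesin subunit, and RAD54 a factor of recombination repair. POL30 measured -1.41, -3.33, -0.10 and -1.32 in sef1Δ and -1.58, -2.42, -0.37 and -1.91 in WT in YPGly, against 1.24, -0.33, 0.73 and 0.15 in sef1Δ and 0.79, -0.32, 0.21 and 1.21 in WT in YPD. Replicate 2 was its lowest array in all 4 groups and replicate 3 its highest in YPGly, where it overlapped the YPD arrays in sef1Δ. MCD1 measured -2.75, -4.66, -2.18 and -2.66 in sef1Δ and -3.16, -4.50, -2.70 and -2.83 in WT in YPGly, with replicate 2 again lowest, and changed by -1.98 and -2.30. RAD54 changed by -2.14 and -2.01. Without replicate 2 the changes in sef1Δ and WT were -1.65 and -2.02 for POL30, -1.56 and -2.19 for MCD1 and -1.85 and -1.93 for RAD54. On a list of cell cycle, replication and histone genes that holds POL30, 10 of the other 53 genes tested were called lower in YPGly in both strains and 0 higher.

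RPL38 and DYS1, which serve translation, lay near the -2 end of the range. RPL38 changed by -2.35 in sef1Δ and -1.73 in WT, and was the 1 member of 77 ribosomal protein genes tested. Of the other 76, 75 were called lower in YPGly in both strains and 0 higher, and the median change over all 77 was -1.74 in sef1Δ and -1.35 in WT. DYS1, the first enzyme of hypusine formation on a translation factor, changed by -2.26 and -1.81.

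The 28 genes with no symbol held had mean changes of -3.34 to -2.02. SAKL0F04356g averaged -2.48 ± 0.57 and -2.36 ± 0.80 in YPGly (sef1Δ and WT), against 0.65 ± 0.68 and 1.18 ± 0.93 in YPD (SD, n = 4 each). SAKL0G13288g, with small replicate spread, averaged -3.38 ± 0.26 and -3.22 ± 0.17 in YPGly (sef1Δ and WT), against -0.38 ± 0.17 and -0.24 ± 0.30 in YPD (SD, n = 4 each). The bright SAKL0B01496g, SAKL0H20020g and SAKL0G18964g had mean changes of -2.80, -2.69 and -2.22. SAKL0A05236g is annotated as the precursor of the mating pheromone alpha factor, and changed by -2.42 in sef1Δ and -2.36 in WT, both of which were MATa strains. SAKL0A04642g, SAKL0D15158g, SAKL0F07194g, SAKL0G11792g and SAKL0H23584g are taken up elsewhere with their values or deviations. The remaining 17 were SAKL0A00770g, SAKL0A02354g, SAKL0A10582g, SAKL0C13244g, SAKL0D03696g, SAKL0E01474g, SAKL0E01870g, SAKL0E03146g, SAKL0E03498g, SAKL0E04246g, SAKL0E05742g, SAKL0H03696g, SAKL0H03938g, SAKL0H05038g, SAKL0H05500g, SAKL0H22594g and SAKL0H23012g, with mean changes of -2.98 to -2.06.

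**Figure D2:**
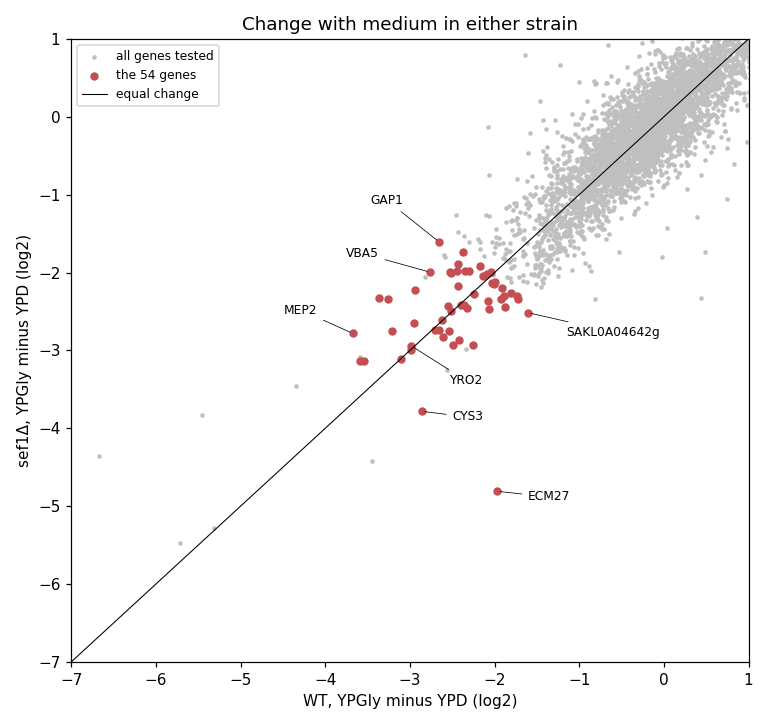
Change between media (YPGly minus YPD, log2, group means of 4 arrays) in sef1Δ (vertical) and in WT (horizontal), with the 54 genes in red, the other tested genes that fall in this window in grey and the line of equal change. For 42 of the 54 genes the strains differ by less than 1.5-fold in this change (86.5% of all genes tested). ECM27 lies farthest from the line, at -4.81 in sef1Δ and -1.97 in WT.

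Replicates of the 54 genes were more spread than those of genes at large. The median SD within a group was 0.50 in sef1Δ and 0.46 in WT in YPGly, against 0.32 and 0.37 in YPD. Over all genes tested it was 0.30 and 0.30 in YPGly and 0.26 and 0.23 in YPD. Some genes deviated with the replicate number in both strains at once. In YPGly, replicate 2 was at least 2-fold above the mean of the other 3 in both strains for 6 of the 54 genes (1.46% of all genes tested) and at least 2-fold below it for 3 (1.57%). Those above were YRO2, OPT1, HEM13, PDR12, PHO3 and SAKL0F04356g, and those below POL30, MCD1 and SAKL0H23584g. Replicate 3 was above for 1 gene (0.235% of all genes) and below for 3 (1.20%). Replicates 1 and 4 each were above for 0 (0.0235% and 0.0705% of all genes) and below for 1 (0.0235% and 0.0705%).

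YRO2, whose S. cerevisiae ortholog is a membrane protein of unknown function, was the most variable of all 54 genes. It measured -3.95, 0.93, -3.39 and -3.26 in sef1Δ and -4.75, 3.56, -5.13 and -3.35 in WT in YPGly, against -0.37, 3.13, 0.38 and -1.05 in sef1Δ and 0.18, 3.64, 1.00 and -2.55 in WT in YPD. Replicate 2 was its highest array in all 4 groups, and in WT it was nearly as high in YPGly (3.56) as in YPD (3.64). Without replicate 2 it changed by -3.19 in sef1Δ and -3.95 in WT, against -2.94 and -2.98 over all 4. What set replicate 2 apart was not tested. Without all 4 of its arrays, 63 genes met the rule and 48 of the 54 were among them.

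**Figure D3:**
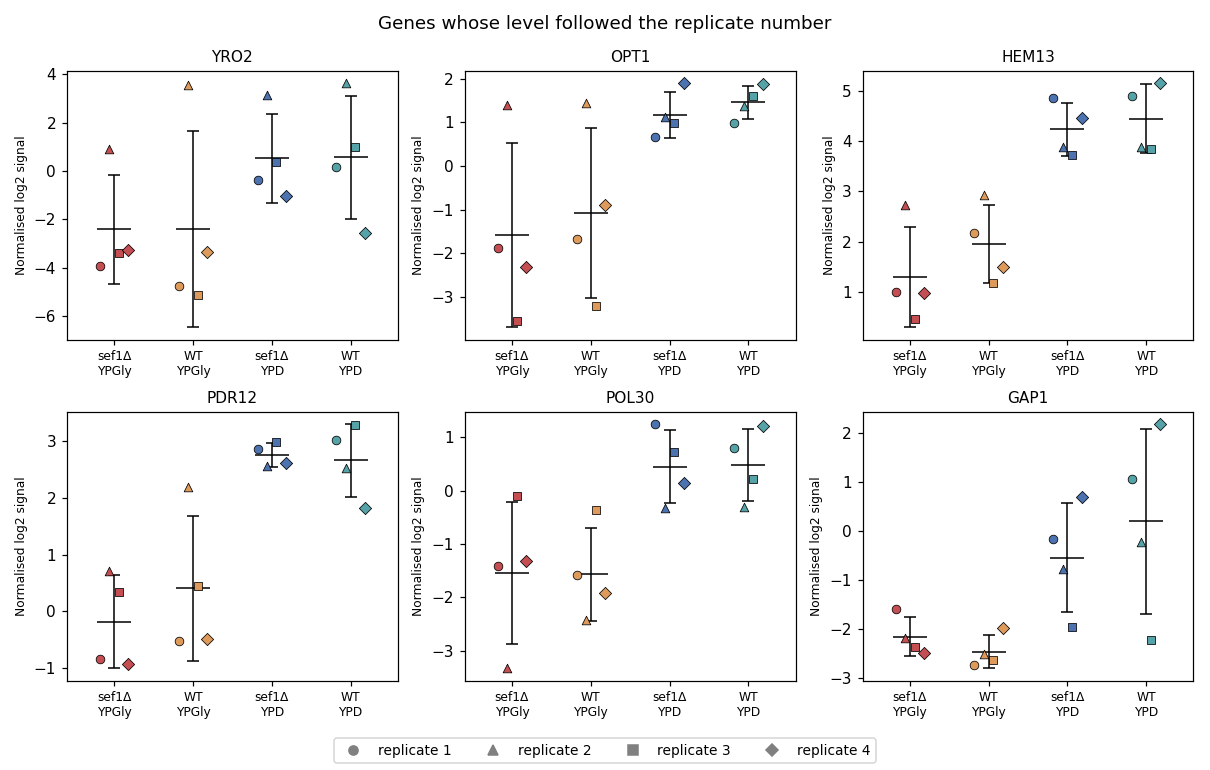
Normalised log2 signal of 6 genes in each group (points, 1 per array, shaped by replicate number; bars, mean ± SD of 4). Replicate 2 in YPGly is highest for YRO2, OPT1, HEM13 and PDR12 and lowest for POL30 in both strains, and for GAP1 the spread lies in YPD.

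The strains were then compared within YPD, to ask whether loss of Sef1 altered these genes on glucose. None of the 54 was called by limma at an adjusted p (Benjamini-Hochberg) of 0.05 or below and a change of 1.5-fold or more, where 0.0705% of all genes tested were called lower and 0% higher. At an unadjusted p under 0.05 there was 1 lower gene (1.79% of all genes) and 0 higher (0.870%), and no gene was called with the replicate block or by the methods' t-test. That gene was FRE5, which measured -1.12, -1.47, -1.53 and -1.53 in sef1Δ and -1.12, -0.46, -0.81 and -0.99 in WT (log2 change -0.57, SE 0.17, adjusted p = 0.999 by limma). No gene had strains that did not overlap in YPD (1.32% of all genes were lower and 0.588% higher without overlap). The log2 changes ran from -0.75 for MEP2 to 0.27 for VBA5, 52 of 54 were under 1.5-fold (98.8% of all genes tested), and the median SE was 0.23.

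Small differences in YPD leaned one way. The median change was -0.15 for the 54 genes and 0.01 for all genes tested, and 44 of the 54 were below 0, where 47.6% of all genes were. The lean lay in part of the arrays: within the slide of replicates 3 and 4 the median of the 54 was -0.33, and within that of replicates 1 and 2 it was 0.00. Without replicate 4 of WT, the array with the lowest share of probes well above background, 32 of 54 were below 0. With spike-in scaling 9 were, the median of the 54 was 0.23 and that of all genes 0.38.

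In YPGly, limma called 1 of the 54 genes lower in sef1Δ and 0 higher, where 0.494% of all genes tested were called lower and 0.729% higher. The gene was ECM27, annotated as a non-essential protein of unknown function. It measured -6.59, -8.16, -6.74 and -6.18 in sef1Δ and -4.45, -3.89, -4.02 and -3.65 in WT in YPGly, against -2.10, -2.21, -2.08 and -2.04 in sef1Δ and -2.10, -1.79, -2.18 and -2.06 in WT in YPD. The strains overlapped in YPD, and in YPGly every sef1Δ array lay below every WT array. ECM27 was lower in sef1Δ in YPGly (log2 change -2.92, SE 0.39, adjusted p = 0.00581 by limma), and it changed between media by -4.81 in sef1Δ and -1.97 in WT. The WT change alone was weaker than -2, so ECM27 was chosen through its low sef1Δ values in YPGly. The strain test and the test of the difference between media used these same values, so neither is independent of the choice. These were dim spots, with processed signals of 2.51 to 27.0 in sef1Δ and 85.0 to 131 in WT in YPGly, and replicate 2 of sef1Δ was not well above background, so the size of the change is uncertain. ECM27 met the signal floor of 200 through 1 group, sef1Δ in YPD, where its lowest array read 208 (188 for WT in YPD). Without replicate 2 of sef1Δ in YPGly the log2 change was -2.50. Within the slides it was -3.21 (replicates 1 and 2) and -2.63 (replicates 3 and 4), with no call in either. Few of the 4255 genes tested were called there, 2 lower and 0 higher on the first slide and 1 lower and 1 higher on the second. With normexp background correction (offset 50) the log2 change was -0.82 and not called. An offset of 50 shrinks the change of spots this dim, so the lost call cannot decide whether the strains differed.

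Same-numbered arrays of the 2 strains deviated together, so the replicate number was also fitted as a block. With it, 3 of the 54 genes were lower in sef1Δ in YPGly (2.09% of all genes) and 1 was higher (3.15%). The lower ones were ECM27 (adjusted p = 0.00150 by limma with the block), CYS3 and SAKL0A04642g, and the higher one was VBA5. CYS3 measured -2.86, -1.64, -1.93 and -3.01 in sef1Δ and -0.80, -0.99, -0.65 and -2.50 in WT (log2 change -1.12, SE 0.25, adjusted p = 0.0366 by limma with the block, and 0.331 without). Its groups overlapped through replicate 4 of WT, but each sef1Δ array was below the WT array of its number. SAKL0A04642g, similar to an S. cerevisiae protein predicted to be palmitoylated, measured -4.46, -4.18, -4.10 and -4.92 in sef1Δ and -3.51, -3.50, -3.46 and -4.14 in WT (log2 change -0.76, SE 0.13, adjusted p = 0.0163 by limma with the block, and 0.177 without). Its change between media in WT was also weaker than -2, so its sef1Δ values in YPGly helped to choose it. VBA5, a putative transporter of the major facilitator superfamily, measured -2.02, -1.92, -1.70 and -2.15 in sef1Δ and -3.37, -2.57, -3.41 and -2.59 in WT (log2 change 1.04, SE 0.22, adjusted p = 0.0319 by limma with the block, and 0.0780 without). It was higher without overlap, and was the 1 gene of the 54 to be so. The change of VBA5 between media in sef1Δ was just weaker than -2, so its WT values in YPGly helped to choose it. Its strain test used these same values and is not independent of the choice.

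**Figure D4:**
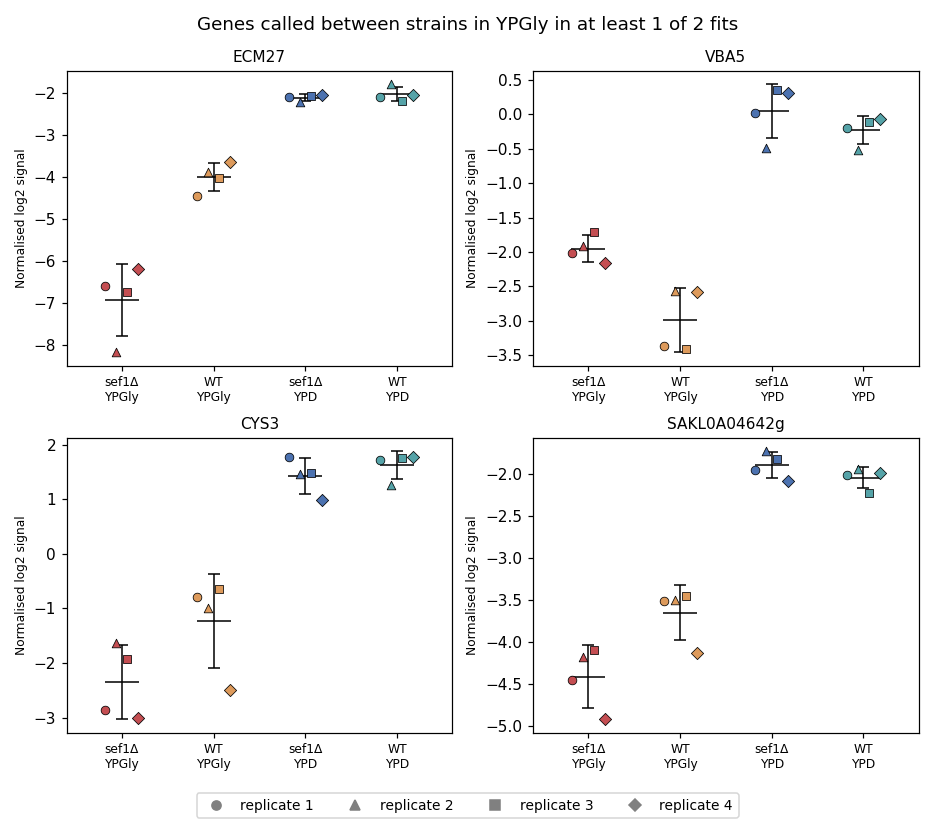
Normalised log2 signal of the 4 genes called between strains in YPGly with or without the replicate block (points, 1 per array, shaped by replicate number; bars, mean ± SD of 4). In YPGly the sef1Δ mean lies below the WT mean for ECM27, CYS3 and SAKL0A04642g and above it for VBA5, and in YPD the strains overlap for each of them.

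In YPGly the strains did not overlap for 2 genes that were lower in sef1Δ (3.48% of all genes tested) and 1 that was higher (6.02%). Those lower without overlap were ECM27 and SAKL0G11792g, which measured 0.49, 0.81, 0.61 and 0.44 in sef1Δ and 1.09, 0.98, 0.99 and 0.99 in WT (log2 change -0.42, SE 0.15, adjusted p = 0.250 by limma). At an unadjusted p under 0.05 there were 7 lower (4.58%) and 1 higher (7.71%). The median change of the 54 genes was -0.15, with 36 below 0, where the median over all genes was 0.03 and 45.5% were below 0. Of the 54, 47 changed by less than 1.5-fold (90.7% of all genes tested), and the median SE was 0.31. ADH1 and ADH2 differed by 0.28 (SE 0.53) and 0.21 (SE 0.52), and YRO2 by 0.00 with an SE of 1.82, too wide to show a difference of several fold. Each group lay in its own column of the 2 slides, so a part of position on the slide cannot be told apart from the group.

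**Figure D5:**
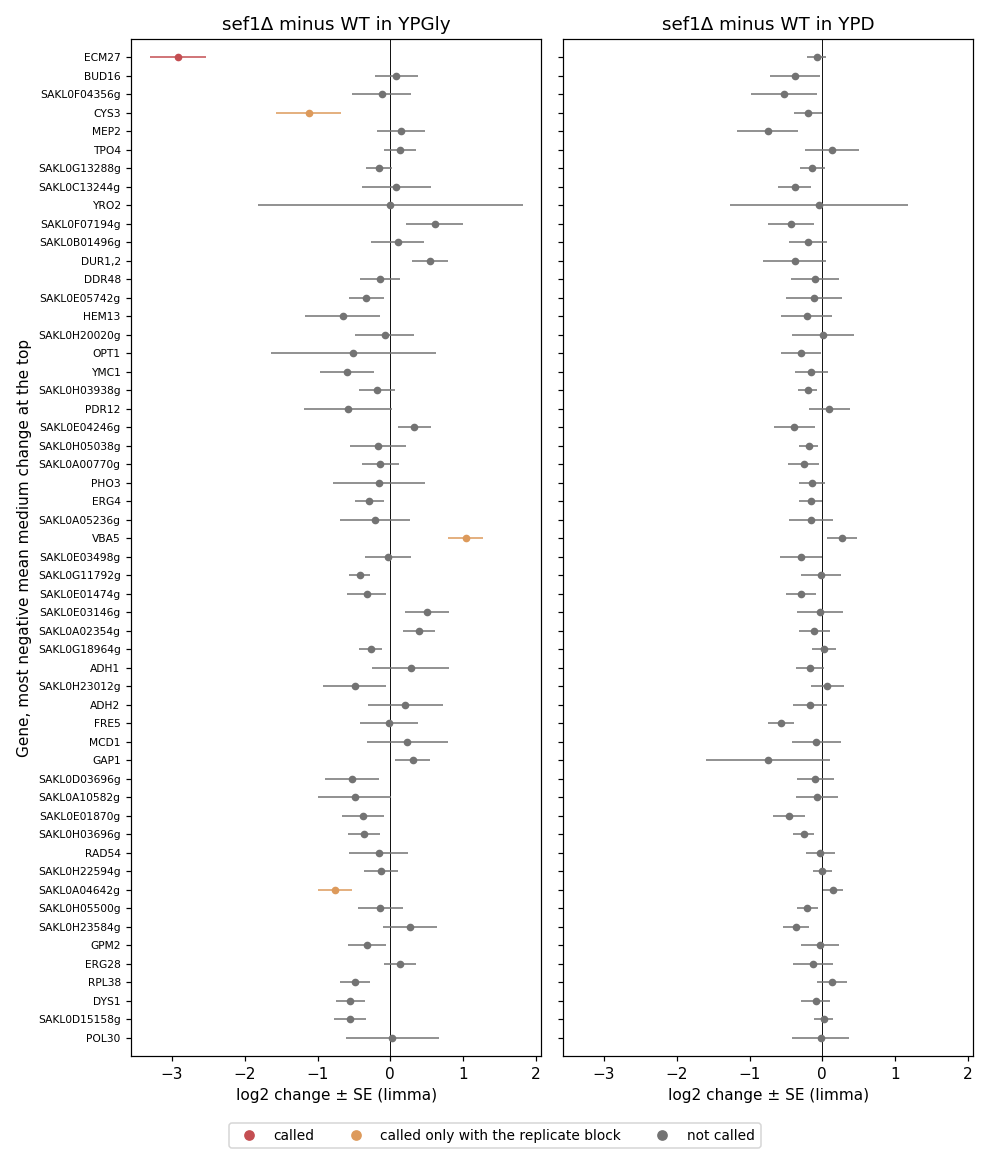
Difference between sef1Δ and WT (log2 change ± SE from limma) for each of the 54 genes in YPGly (left) and YPD (right), in the order of their change between media. Only ECM27 in YPGly was called without the replicate block, CYS3, SAKL0A04642g and VBA5 were called with it, and no gene was called in YPD.

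The test of whether the effect of sef1Δ differed between media gave the same single gene. ECM27 had a log2 difference of -2.84 (the effect of sef1Δ in YPGly less its effect in YPD, SE 0.43, adjusted p = 0.00343 by limma over all 16 arrays). With normexp at its offset of 50, which shrinks changes of dim spots, the difference was -0.74 and not called (adjusted p = 0.400 by limma). Nor was it called within the slide of replicates 1 and 2 or that of replicates 3 and 4 (adjusted p = 0.448 and 0.185 by limma). It could not be fitted with spots required well above background, nor with the other probe alone, which missed the signal floor. With the mean of both probes the difference was -2.78 (adjusted p = 0.000481 by limma). ECM27 was called lower with the replicate block, and 0 of the 54 were called higher in either fit. Of all genes, 0.259% were called lower and 0.400% higher without the block, and 0.400% lower and 0.940% higher with it. At an unadjusted p under 0.05, 3 of the 54 were lower (3.41% of all genes) and 1 higher (6.13%). The next most negative differences were those of CYS3 (-0.92, SE 0.52), SAKL0A04642g (-0.91, SE 0.27), PDR12 (-0.68, SE 0.73) and RPL38 (-0.62, SE 0.29). The most positive were those of GAP1 (1.05, SE 0.98), SAKL0F07194g (1.04, SE 0.54), DUR1,2 (0.92, SE 0.54), MEP2 (0.89, SE 0.58) and VBA5 (0.76, SE 0.32). None of these passed the test, with a smallest adjusted p among them of 0.225 by limma.

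The genes were found on all 8 chromosomes, with 4 to 13 on each. In 6 pairs they lay close together, by locus number, with at most 3 arrayed genes between them: YRO2 and SAKL0D03696g, VBA5 and SAKL0A00770g, DUR1,2 and PDR12, TPO4 and SAKL0H05500g, YMC1 and SAKL0A10582g, and RPL38 and SAKL0H23012g. How often such pairs occur among other genes was not tested.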

How the data were processed

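RNA of 16 samples was hybridised to 1-colour Agilent arrays, 8 on each of 2 slides, with replicates 1 and 2 of every group on the first slide and 3 and 4 on the second. Per the file headers, the deposited intensity values are processed signals of Agilent Feature Extraction 10.5.1.1, after subtraction of local background. A deposited table holds the authors' log2 values scaled to the 75th percentile, on which the 54 genes were chosen. For the tests, log2 of the processed intensity minus log2 of the 75th percentile of each array was computed from the intensities, outlier spots were left out, and the brighter of the probes of a gene stood for it. Columns mapped to no sample numbered 0.

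Of 5316 genes, the 4255 with a signal of 200 or more on all arrays of a group entered linear models with moderated variance (limma 3.58.1, R 4.3.3), with Benjamini-Hochberg adjustment over all of them. The 8 arrays of a medium entered each strain comparison, and all 16 the difference between media. The change with medium was fitted in each strain in the same way, and its calls are given only for genes outside the 54. Replicate numbers are shared between groups in the sample titles, and deviations of same-numbered sef1Δ and WT arrays correlated at 0.21 to 0.71 over genes, so the number was taken to pair samples and fitted as a block as well. Normexp used the median spot signal and an offset of 50. The model fit was tested on simulated data.

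The 54 genes and the gene lists were chosen with earlier results of these data known. Genes were named where they had the most negative change, lay nearest the ends of the range, were brightest in YPD, were called between strains or differed most between strains in their change, or were the most negative of a list. SAKL0G11792g, FRE5, MCD1, RAD54, PHO3, SAKL0A05236g and SAKL0H23584g were named after their values were seen. Symbols of orthologs were held for only part of the genes, so counts over lists are lower limits.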

Additional observations from a re-analysis of the deposited data

Results flagged for a closer look

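Among 120 groups of 4 arrays of the 30 genes named by rule, 10 held 1 array far from the other 3 (by Dixon's test of the gap to the nearest array at the 95% level), and over all 54 genes 22 of 216 groups did, where chance would give about 10.8, or 1 in 20. Of these 10, 4 were replicate 2 of sef1Δ in YPGly, the dimmest array. There YRO2 stood at 0.93 (the others at -3.95 to -3.26), SAKL0C13244g at -2.03 (-3.66 to -3.60), SAKL0B01496g at 2.20 (0.74 to 0.94) and SAKL0H20020g at 2.38 (0.42 to 0.66), all of them higher.

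In WT in YPGly, DDR48 was low on replicate 2, at 0.85 (1.47 to 1.53), and SAKL0A04642g on replicate 4, at -4.14 (-3.51 to -3.46). In sef1Δ in YPD, SAKL0D15158g was high on replicate 1, at 0.44 (0.10 to 0.15), and SAKL0G18964g low on replicate 4, at 3.30 (3.66 to 3.72). In WT in YPD, CYS3 was low on replicate 2, at 1.25 (1.72 to 1.77), and SAKL0F07194g on replicate 3, at -1.75 (-0.81 to -0.71).

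ECM27 was the 1 gene whose strain difference itself differed between media, by -2.84 on the log2 scale. The call was lost with normexp at an offset of 50 (-0.74), and within either slide, where almost no gene was called.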

How the results depend on the processing

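No gene of the 54 was called between strains in YPD under any of 32 alternatives. In YPGly the count lower in sef1Δ was 1, and became 0 with normexp, with spots required well above background, with the other probe and within slide 1 or slide 2, 2 with the spread shared by all 16 arrays, 8 with array quality weights, 2 by the methods' t-test uncorrected and 0 after Benjamini-Hochberg. Of all 4255 genes tested, 21 were lower, against 46 with the shared spread, 173 with weights and 89 by the uncorrected t-test. With normexp 21 were lower, within slides 1 and 2 there were 2 and 1, and after Benjamini-Hochberg 12. With spots required well above background 21 of 5160 were lower, and with the other probe 23 of 3907. The count higher was 0, and became 1 with the shared spread, 2 with weights and 1 by the uncorrected t-test. Of all 4255 genes, 31 were higher, against 72, 253 and 152 in these fits. The replicate block gave 3 lower and 1 higher, and changed no other call. For the difference between media the count lower was 1, and became 0 with normexp, with spots required well above background, with the other probe and within either slide, and 4 with weights. Of all 4255 genes, 11 were lower for the difference, against 86 with weights, 7 with normexp, and 1 and 0 within slides 1 and 2. With spots required well above background 7 of 4890 were lower, and with the other probe 9 of 3907. Leaving out single arrays, or all 4 of a number (chosen after seeing the data), gave 0 to 1 lower and 0 to 1 higher in YPGly and 0 to 2 lower for the difference. The 0 came from leaving out every array numbered 1 or 3, and the 2 and the 1 higher from leaving out WT in YPGly replicate 4. Without the arrays numbered 1 or 3, 9 and 12 of 4255 genes were lower in YPGly. Without WT in YPGly replicate 4, 20 of 4255 genes were lower for the difference and 59 higher in YPGly. ECM27 stayed negative throughout (-3.46 to -0.82, adjusted p 2.49e-05 to 0.228 by limma or the t-test). It could not be fitted with spots required well above background, nor with the other probe alone, which missed the signal floor. With the mean of both probes its log2 change in YPGly was -2.88 (adjusted p = 0.00146 by limma). The t-test was not run for the difference between media.

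Spike-in scaling kept 23 of the 54 genes in the range and gave medians of -2.06 in sef1Δ and -1.76 in WT. Leaving arrays out gave 49 to 63 genes, and medians of -2.46 to -2.29 in sef1Δ and -2.51 to -2.26 in WT. Dim spots limit ECM27 in sef1Δ in YPGly, and 4 arrays a group limit all tests.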
